A study of Mus musculus with 9 samples.

Results

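The 35 genes described here carry fatty acids into the heart muscle cell and through mitochondrial beta-oxidation. They were chosen by name, as a list of genes for uptake, activation, carnitine transport, the 4 steps of the oxidation cycle and electron transfer, and all 35 were found among the 13539 genes of the deposited table. Earlier results of these data were known when the list was chosen. RNA was sequenced from hearts of male mice aged 12 weeks on the C57BL/6JOlaHsd background, with 3 libraries in each of 3 groups. The first group was OMA1 KO mice given isoproterenol at 10 mg/kg/day from implanted Alzet minipumps for 7 days, the second was wild type mice given the same dose for the same time, and the third was OMA1 KO mice left untreated. OMA1 cuts proteins of the mitochondrial inner membrane when the organelle is under stress, and isoproterenol is a β-adrenergic agonist that raises heart rate and force and, given for days, makes the heart remodel. The labels do not describe the knockout allele, the part of the heart sampled or a sham pump, so drug and pump implantation cannot be told apart. No untreated wild-type group was analysed here, and a difference between genotypes in the response to the drug was therefore not tested.

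The adult heart draws most of its energy from long-chain fatty acids. Lipoprotein lipase frees them from circulating triglycerides in the capillaries, CD36 and the transport protein FATP1 bring them across the cell membrane, and acyl-CoA synthetase ties them to coenzyme A. The carnitine shuttle moves the acyl chain into the mitochondrion, where acyl-CoA dehydrogenases, hydratases, hydroxyacyl dehydrogenases and thiolases shorten it round by round and pass electrons to the electron transfer flavoprotein. Much of this gene set is under the control of the nuclear receptor PPARα and its coactivator PGC-1α, and lower expression of it is a known feature of the hypertrophied and failing heart.

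Values are the deposited normalized expected counts, and a group value is the mean ± SD of n = 3 libraries. A log2 difference is limma's, on log2(value + 1), with its standard error, and it counts as past the threshold where the two-sided p adjusted over all 8543 tested genes was under 0.05. The libraries held 6.93e+06 to 1.22e+07 reads. The targeted gene, Oma1, was at 6.24 ± 0.502 in treated knockout, 19.9 ± 2.16 in treated wild-type and 7.42 ± 1.46 in untreated knockout hearts, as the labels have it. Mitochondrially encoded transcripts took 38.2% to 42.5% of the signal in treated knockout, 36.7% to 37.3% in treated wild-type and 33.9% to 34.6% in untreated knockout libraries. The libraries of a group were not alike for the fatty acid genes. Treated knockout replicate 2 was the lowest of its group for 30 of the 35 genes, against 45.3% of all tested genes, and it had the highest mitochondrial share. Treated wild-type replicate 3 was the lowest of its group for 33 of 35, against 42.2% of all genes, and untreated knockout replicate 3 for 29 of 35, against 36.9%. The labels name no batch, and p-values measure the spread between these libraries.

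Of the 35 genes, 34 reached the minimum for testing, 10 or more in 3 or more of the 9 libraries. Acad10, an acyl-CoA dehydrogenase of low expression, stayed under it, with 6.22, 8.55 and 5.92 in treated knockout libraries, 4.49, 5.88 and 3.94 in treated wild-type libraries and 4.71, 5.66 and 4.14 in untreated knockout libraries. Acot1, a cytosolic acyl-CoA thioesterase, passed the minimum only through the untreated libraries, so its difference from them was built into its selection, and counts against untreated hearts are given with and without it. Per kilobase of transcript, the scale on which genes can be compared, levels of the 34 tested genes in treated knockout hearts ran from 1891 for Fabp3, the fatty acid binding protein of heart muscle, and 923 for Lpl, lipoprotein lipase, to 6.20 for Slc22a5 and 2.79 for Acot1. The same 3 genes, Fabp3, Lpl and Hadhb, led in that order in all 3 groups. Summed over the 35 genes, the values came to 1.56 ± 0.169% of the signal in treated knockout hearts, 1.66 ± 0.158% in treated wild-type hearts and 2.29 ± 0.059% in untreated knockout hearts. With the mitochondrial genome left out of the total, the shares were 2.60 ± 0.193%, 2.64 ± 0.259% and 3.47 ± 0.0919% in the same groups. Both treated groups lay below the untreated one on either total, with no overlap between libraries, and the treated groups overlapped each other.

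**Figure D1:**
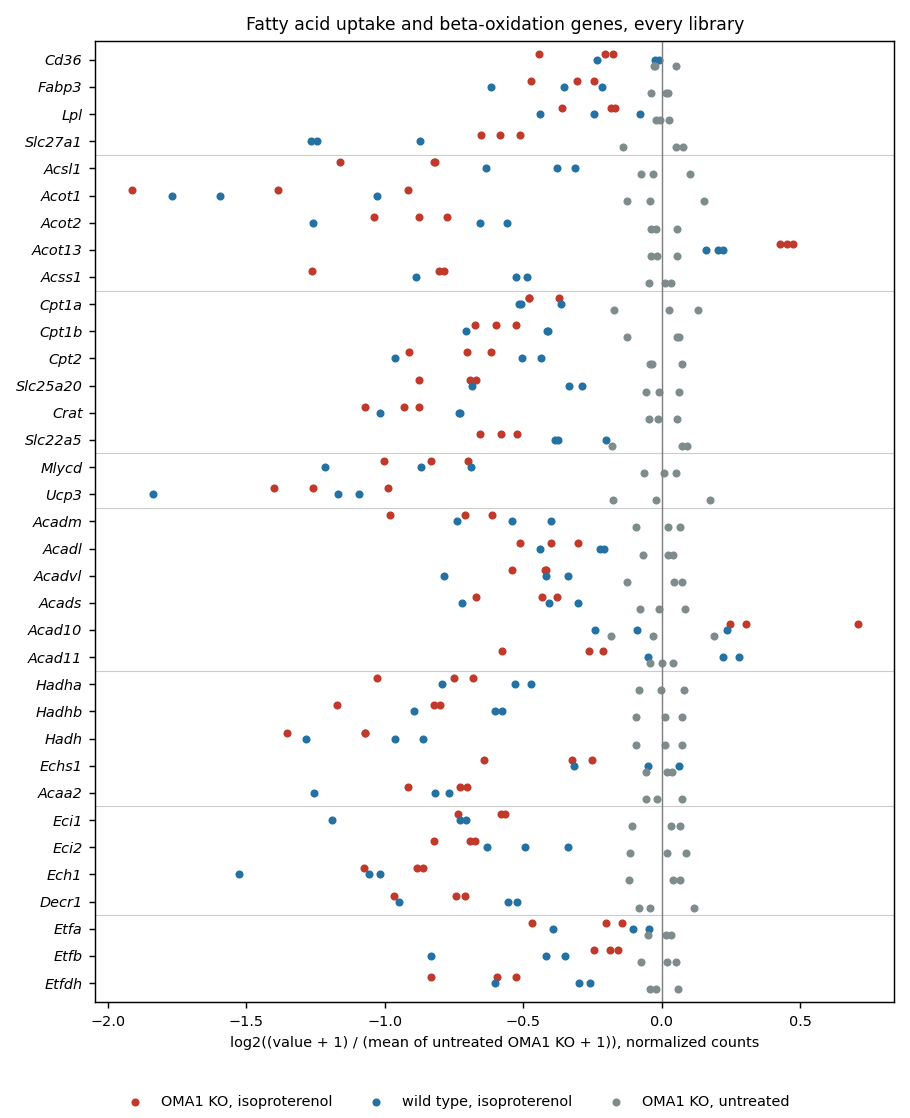
Value of each of the 35 genes in every library as log2((value + 1) / (mean of untreated OMA1 KO + 1)), with 1 point per library, red for treated knockout, blue for treated wild-type and grey for untreated knockout hearts; grey lines part the roles. The points of both treated groups lie left of 0 for most genes, with Acot13 and Acad10 to the right in treated knockout hearts, and Slc27a1 and Acsl1 show the red and blue points apart.

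The first comparison asks how the genes differed between treated and untreated hearts that lack OMA1. Nearly the whole pathway was lower in treated knockout hearts. The list was chosen with earlier results of these data known, so its counts may not be independent of them. Of the 34 tested genes 31 fell, 1 rose and 2 did not pass, where 27.4% of all tested genes were lower and 23.9% higher. With libraries rescaled to their nuclear genes, 29 fell and 1 rose, and the calls over all genes turned from 2043 higher and 2345 lower to 2834 higher and 1669 lower, with a shift of the median of all genes from -0.02 to 0.08. Without Acot1 the count was 30 of 33 lower. The median log2 difference of the 34 genes was -0.69, and -0.65 without Acot1, beside -0.02 over all tested genes. For 33 of the 34 every treated knockout library lay below every untreated one, a pattern that 33.4% of all tested genes showed. The only rise was that of Acot13, a mitochondrial acyl-CoA thioesterase, and the genes that did not pass were Lpl (-0.24 ± 0.10, adjusted p = 0.0515) and Etfb (-0.19 ± 0.10, adjusted p = 0.13), both lower on average. All 6 genes of the carnitine shuttle fell, as did all 5 tested acyl-CoA dehydrogenases, all 5 genes of the hydratase, hydroxyacyl dehydrogenase and thiolase steps, all 4 for unsaturated chains and both of malonyl-CoA control and uncoupling. Of the others 3 of 4 uptake genes, 4 of 5 activation genes and 2 of 3 electron transfer genes fell.

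Markers of several cell types differed between the same groups. In bulk tissue, fewer cells of a type and less RNA per cell cannot be told apart. The labels do not give the part of the heart sampled, so a difference in that part cannot be told apart from these. All 8 atrial markers were lower in treated knockout hearts, with a summed value of 105 to 138, against 1213 to 2693 in untreated knockout hearts. Myl7, Myl4 and Sln, which define atrial muscle, were at 0.243 ± 0.217, 2.05 ± 0.568 and 0.027 ± 0.0468, against 199.6 ± 74.7, 311 ± 135 and 92.1 ± 40.5 in untreated knockout hearts. These genes reached the minimum for testing only through the untreated libraries, so their lower calls were built into their selection. Adipocyte markers summed to 33.7 to 35.8 in treated knockout hearts, against 81.5 to 203 in untreated ones, with both tested genes of the 6 in the table lower. The values of these 2 genes by library are not given here. If they reached the minimum for testing only through the untreated libraries, their lower calls were built into their selection. All 12 endothelial markers were higher, summing to 1606 to 1934 against 969.6 to 1049, as were 7 of 9 tested fibroblast markers, summing to 2227 to 2305 against 1826 to 1903. Of the 12 cardiomyocyte markers 4 were lower and 1 higher, with sums of 49105 to 51868 in treated and 54006 to 58477 in untreated knockout hearts. Set against that sum, the 35 genes came to 28.4% to 32.8% of it in treated knockout hearts, and to 38.4% to 40.1% in untreated knockout hearts. The part of these other markers in the differences was not tested.

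**Figure D2:**
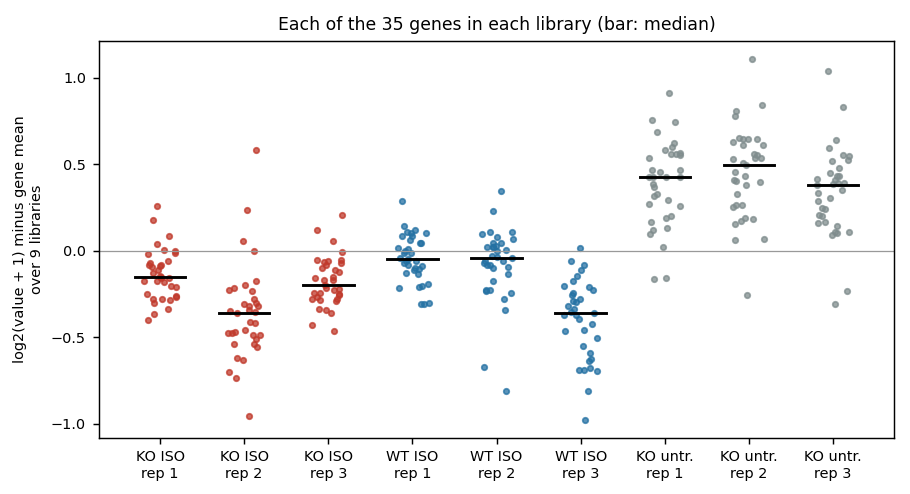
Each of the 35 genes in each library as log2(value + 1) minus the gene's mean over the 9 libraries, with 1 point per gene and a bar at the median. The medians lie between -0.36 and -0.15 in treated knockout, between -0.36 and -0.04 in treated wild-type and between 0.38 and 0.50 in untreated knockout libraries, with treated knockout replicate 2 and treated wild-type replicate 3 the lowest.

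The second comparison sets treated knockout against treated wild-type hearts and asks what loss of OMA1 went with under the same adrenergic load. With all libraries in the fit, the pathway did not move as a block here. Of the 34 tested genes 3 were higher in treated knockout hearts, 4 were lower and 27 did not pass, which is 8.82% and 11.8% of them, beside 12% higher and 15.9% lower among all tested genes. The higher genes were Slc27a1, Etfb and Acot13, and the lower ones Acad11, Acsl1, Slc25a20 and Slc22a5. The median was -0.10, beside -0.01 over all tested genes. For 3 genes all treated knockout libraries lay above all treated wild-type ones and for 4 below, where 20% and 23.6% of all tested genes did so. The 4 below were Acsl1, Acad11, Slc22a5 and Eci2. At an unadjusted limma p under 0.05, 5 of the pathway's genes were higher and 10 lower. The share of all tested genes at that level was not counted, so these counts have nothing to be weighed against. The count of lower genes moved most without treated wild-type replicate 3. Without that library 17 pathway genes were lower and 2 higher, beside 1403 lower and 979 higher among all 8475 genes tested. The median of the pathway was then -0.21, beside -0.01 over all tested genes. The pathway genes that passed in addition included Acss1 (-0.44), Echs1 (-0.41), Etfdh (-0.37), Hadhb (-0.34) and Hadha (-0.32). Without treated wild-type replicate 3 and treated knockout replicate 2 together 14 were lower and 3 higher, beside 1140 lower and 682 higher among all 8378 genes tested. Leaving out treated knockout replicate 2, treated wild-type replicate 1 or treated wild-type replicate 2 left 2 lower genes each. Among all tested genes 802, 902 and 971 were lower in these fits. Correcting for transcript length and base composition left 1 higher gene, Slc27a1, and 5 lower, beside 703 higher and 864 lower among all 8494 genes tested. With nuclear-gene scaling 5 were higher and 3 lower, while the calls over all genes turned from 1023 higher and 1356 lower to 1390 higher and 1065 lower. Treated wild-type replicate 3 also stood apart in fibroblast markers, which summed to 2621, against 1921 and 1947 in replicates 1 and 2, and in atrial markers, at 873 against 72.9 and 107. Of the 873, Nppa, which stressed ventricles also express, made up 842, and Myl7, Myl4 and Sln were near 0 in all 3 libraries. The part of these markers in the result was not tested.

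**Figure D3:**
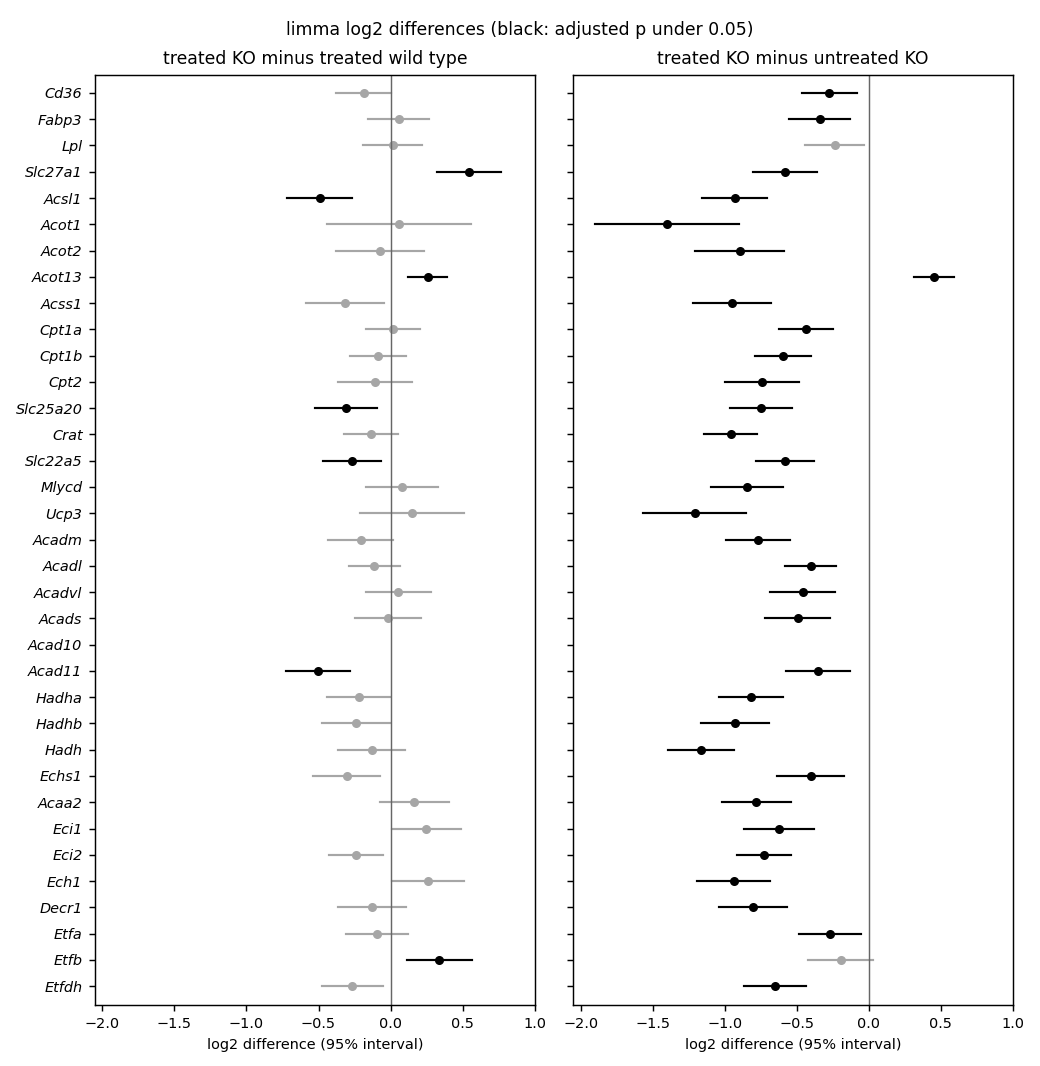
limma log2 differences of the 34 tested genes with 95% intervals, treated knockout minus treated wild type on the left and treated knockout minus untreated knockout on the right; black marks an adjusted p under 0.05 over all tested genes, and Acad10, not tested, has no point. On the left the intervals lie on both sides of 0 and 7 are black; on the right 32 are black, all but that of Acot13 below 0.

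Among the uptake genes, Slc27a1 encodes the fatty acid transport protein FATP1 (ENSMUSG00000031808, chromosome 8, 71568882 to 71587302). Its values were 74.7, 78.6 and 71.2 in treated knockout libraries, 61.1, 46.9 and 46.2 in treated wild-type libraries and 117, 119 and 102 in untreated knockout libraries. The 3 groups did not overlap, with untreated knockout hearts highest and treated wild-type hearts lowest. It was higher in treated knockout than in treated wild-type hearts by 0.54 ± 0.10 (adjusted p = 0.0027) and lower than in untreated knockout hearts by a log2 difference of -0.58 ± 0.10 (adjusted p = 0.00042). Cd36, the fatty acid translocase (ENSMUSG00000002944, chromosome 5, 17781690 to 17888801), had 1407, 1194 and 1437 in treated knockout libraries, 1612, 1597 and 1379.7 in treated wild-type libraries and 1594, 1680.4 and 1593 in untreated knockout libraries. Treated knockout libraries lay below all untreated ones (-0.27 ± 0.09, adjusted p = 0.019), and overlapped the treated wild-type ones (-0.19 ± 0.09, adjusted p = 0.13). That call was lost with quantile, cyclic loess or nuclear-gene scaling of the libraries, with adjusted p up to 0.85, and without treated knockout replicate 2 or untreated knockout replicate 2 (adjusted p = 0.070 and 0.078). Lpl, which hydrolyses lipoprotein triglycerides at the capillary wall (ENSMUSG00000015568, chromosome 8, 68880491 to 68907448), had 3932, 3481 and 3978 in treated knockout libraries, 4231, 3775 and 3294 in treated wild-type libraries and 4546, 4449 and 4405 in untreated knockout libraries. The treated groups overlapped (0.02 ± 0.10, 95% interval -0.19 to 0.22), and both lay below the untreated libraries, short of the threshold with all libraries as deposited. The fall between the knockout groups passed in 10 of 24 alternatives (adjusted p = 0.00028 to 0.048), among them the fits without treated wild-type replicate 1 or 3 (adjusted p = 0.036 and 0.013), and that of treated wild-type from untreated knockout hearts in 9 of 24 (adjusted p = 0.00030 to 0.049). Fabp3, the cytosolic binding protein, was at 1556 ± 125 in treated knockout, 1504 ± 208 in treated wild-type and 1965 ± 46.6 in untreated knockout hearts, and fell in treated against untreated knockout hearts by 0.34 ± 0.10 on the log2 scale (adjusted p = 0.011; 0.058 with cyclic loess scaling). A processed copy, Fabp3-ps1, holds 29.2% of its 50-base stretches.

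Among the genes of activation and acyl-CoA handling, Acsl1 and Acot13 changed in opposite directions in both comparisons. Acsl1, the main long-chain acyl-CoA synthetase of heart (ENSMUSG00000018796, chromosome 8, 46471037 to 46536051), had 449, 354 and 450.3 in treated knockout libraries, 639, 612 and 512 in treated wild-type libraries and 776, 853 and 754 in untreated knockout libraries. The groups did not overlap, and treated knockout hearts were the lowest. The log2 difference was -0.49 ± 0.11 from treated wild-type hearts (adjusted p = 0.0054) and -0.93 ± 0.11 from untreated knockout hearts (adjusted p = 1.4e-05). Acot13, a thioesterase that splits long-chain acyl-CoA (ENSMUSG00000006717, chromosome 13, 24817948 to 24831540), ran the other way, with 195, 192 and 188 in treated knockout libraries, 161, 163 and 156 in treated wild-type libraries and 145, 136 and 138 in untreated knockout libraries. Again no groups overlapped, with treated knockout hearts the highest. Its log2 difference was 0.26 ± 0.06 from treated wild-type hearts (adjusted p = 0.011) and 0.45 ± 0.06 from untreated knockout hearts (adjusted p = 7.2e-05). With transcript length and GC content corrected for, the difference from treated wild-type hearts was 0.10 (adjusted p = 0.27). Acss1, the mitochondrial acetyl-CoA synthetase (ENSMUSG00000027452, chromosome 2, 150618105 to 150668500), had 204, 148 and 206 in treated knockout libraries, 254, 247 and 192 in treated wild-type libraries and 365, 359 and 345 in untreated knockout libraries. It fell in treated against untreated knockout hearts (-0.95 ± 0.13, adjusted p = 4.4e-05), and its difference from treated wild-type hearts, -0.32 ± 0.13, did not pass (adjusted p = 0.073). Acot2, the mitochondrial sister of Acot1, was at 32.0 ± 2.99 in treated knockout, 34.4 ± 8.58 in treated wild-type and 60.4 ± 2.19 in untreated knockout hearts (-0.90 ± 0.14 between the knockout groups, adjusted p = 0.00019). Acot1 was at 6.35 ± 2.48, 5.95 ± 1.95 and 17.7 ± 1.88 in the same groups, with as few as 38 reads in a library. The genes lie 21641 bases apart on chromosome 12, and 27.7% of the 50-base stretches of Acot2 and 33.6% of those of Acot1 occur in other genes, so their reads may be split uncertainly.

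In the carnitine shuttle, the muscle form of carnitine palmitoyltransferase 1, Cpt1b (ENSMUSG00000078937, chromosome 15, 89416405 to 89425863), had 404, 364 and 385 in treated knockout libraries, 438, 437 and 356 in treated wild-type libraries and 605, 608 and 535 in untreated knockout libraries. Both treated groups lay below the untreated libraries and overlapped each other, with log2 differences of -0.60 ± 0.09 from untreated knockout hearts (adjusted p = 0.00012) and -0.09 ± 0.09 from treated wild-type hearts (95% interval -0.28 to 0.10). The annotation holds 93.0% of its 50-base stretches also in Gm44502, a gene on the same strand that overlaps it, so its reads cannot be assigned with certainty. The liver form Cpt1a (ENSMUSG00000024900, chromosome 19, 3322334 to 3385733), far less abundant, had 37.4, 37.4 and 40.4 in treated knockout libraries, 36.5, 40.6 and 36.6 in treated wild-type libraries and 46.5, 53.5 and 57.6 in untreated knockout libraries. It fell by 0.44 ± 0.09 on the log2 scale against untreated knockout hearts (adjusted p = 0.0010) and differed by 0.02 ± 0.09 from treated wild-type hearts. Cpt2, the inner membrane enzyme (ENSMUSG00000028607, chromosome 4, 107903981 to 107923610), had 149.6, 122 and 141 in treated knockout libraries, 162, 169.7 and 117 in treated wild-type libraries and 225, 242 and 223 in untreated knockout libraries. Its log2 differences were -0.74 ± 0.12 from untreated knockout (adjusted p = 0.00021) and -0.11 ± 0.12 from treated wild-type hearts (adjusted p = 0.51).

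Crat, carnitine acetyltransferase (ENSMUSG00000026853, chromosome 2, 30400471 to 30415813), had the smallest p of the 34 genes between the knockout groups. Its values were 268, 234 and 258 in treated knockout libraries, 297, 297 and 243 in treated wild-type libraries and 488, 513 and 477 in untreated knockout libraries. The treated groups overlapped, below the untreated libraries, with a log2 difference of -0.96 ± 0.09 between the knockout groups (adjusted p = 3.0e-06). Slc25a20, the carnitine-acylcarnitine carrier (ENSMUSG00000032602, chromosome 9, 108662088 to 108684641), had 88.2, 77.4 and 89.6 in treated knockout libraries, 113, 117 and 88.6 in treated wild-type libraries and 142, 149.7 and 137 in untreated knockout libraries. It was lower than in untreated knockout hearts (-0.75 ± 0.10, adjusted p = 5.0e-05) and than in treated wild-type hearts (-0.31 ± 0.10, adjusted p = 0.034), where the libraries overlapped at wild-type replicate 3. Its call against wild-type hearts was lost in 8 alternatives, among them the fits without treated knockout replicate 1 or 2 or treated wild-type replicate 1 or 2 (adjusted p = 0.0505 to 0.13). Slc22a5, the carnitine importer OCTN2 (ENSMUSG00000018900, chromosome 11, 53864542 to 53891660), had 19.1, 18.0 and 19.9 in treated knockout libraries, 25.1, 22.1 and 22.0 in treated wild-type libraries and 25.5, 30.6 and 30.9 in untreated knockout libraries. Treated knockout libraries lay below both other groups, by log2 differences of -0.27 ± 0.09 from treated wild-type hearts (adjusted p = 0.048) and -0.58 ± 0.09 from untreated knockout hearts (adjusted p = 0.00021). The call against wild-type hearts was lost in 17 of 23 alternatives, with adjusted p from 0.053 to 0.17, among them the fits without any 1 of the 9 libraries but treated wild-type replicate 3 and untreated knockout replicate 1. Of the 50-base stretches of Slc22a5 26.9% also occur in Slc22a21. That gene held a mean of 1.31 in treated knockout, 0.551 in treated wild-type and 0.988 in untreated knockout hearts.

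The acyl-CoA dehydrogenases take the first step of each round, and differ in the chain length they prefer. Acadm, for medium chains (ENSMUSG00000062908, chromosome 3, 153922357 to 153944632), had 648, 502 and 606 in treated knockout libraries, 752, 681 and 594 in treated wild-type libraries and 1007, 1038 and 931 in untreated knockout libraries. It fell against untreated knockout hearts (-0.77 ± 0.10, adjusted p = 5.3e-05), and its difference from treated wild-type hearts was -0.21 ± 0.10 (adjusted p = 0.14). Acadvl, for very long chains (ENSMUSG00000018574, chromosome 11, 70010183 to 70015411), had 678, 623 and 677 in treated knockout libraries, 717, 679 and 526 in treated wild-type libraries and 937, 954 and 832 in untreated knockout libraries. It fell between the knockout groups (-0.46 ± 0.10, adjusted p = 0.0025; 0.071 with quantile scaling), and the treated groups overlapped (0.05 ± 0.10). Exons of Dvl2 on the other strand cover 42.9% of its exon bases, and the labels do not say whether the kit kept the strand. Acadl, for long chains, and Acads, for short chains, were lower between the knockout groups by log2 differences of -0.40 ± 0.08 and -0.49 ± 0.11, and differed from treated wild-type hearts by -0.11 ± 0.08 and -0.02 ± 0.11, short of the threshold.

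Acad11, a dehydrogenase of hydroxylated fatty acids (ENSMUSG00000090150, chromosome 9, 104063377 to 104127725), set the treated genotypes apart most clearly among these enzymes. Its values were 122, 94.8 and 118 in treated knockout libraries, 166, 172 and 137 in treated wild-type libraries and 138, 142 and 146 in untreated knockout libraries. Treated knockout libraries lay below all others, while the treated wild-type and untreated knockout libraries overlapped. The log2 differences were -0.50 ± 0.10 from treated wild-type hearts (adjusted p = 0.0044) and -0.35 ± 0.10 from untreated knockout hearts (adjusted p = 0.012). With no filter on low values Acad10 had log2 differences of 0.45 ± 0.17 and 0.43 ± 0.17 in the same comparisons (adjusted p = 0.086 and 0.059), and it shares 20.4% of its 50-base stretches with Acad12.

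The mitochondrial trifunctional protein carries the hydratase, hydroxyacyl dehydrogenase and thiolase activities for long chains. Its α subunit gene, Hadha (ENSMUSG00000025745, chromosome 5, 30118304 to 30155162), had 682, 537 and 651 in treated knockout libraries, 790.0, 759 and 632 in treated wild-type libraries and 1092, 1159.6 and 1034 in untreated knockout libraries. The β subunit gene, Hadhb (ENSMUSG00000059447, chromosome 5, 30155248 to 30184593), had 1063, 821 and 1046 in treated knockout libraries, 1221, 1242 and 995 in treated wild-type libraries and 1869, 1949 and 1737 in untreated knockout libraries. For both genes the untreated libraries stood above all treated ones and the treated groups overlapped only through wild-type replicate 3. Between the knockout groups the log2 differences were -0.82 ± 0.10 for Hadha and -0.93 ± 0.11 for Hadhb (adjusted p = 3.1e-05 and 1.9e-05). From treated wild-type hearts they were -0.22 ± 0.10 and -0.24 ± 0.11, short of the threshold (adjusted p = 0.12 and 0.11). Of the 50-base stretches of Hadhb 62.4% also occur elsewhere, most of them in the pseudogene Gm13910, which held a mean of 0.104 in treated knockout, 0.761 in treated wild-type and 1.02 in untreated knockout hearts.

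Hadh, the hydroxyacyl dehydrogenase for medium and short chains (ENSMUSG00000027984, chromosome 3, 131233419 to 131272101), had 266, 219 and 266 in treated knockout libraries, 308, 287 and 229.5 in treated wild-type libraries and 566, 589.7 and 526 in untreated knockout libraries. The untreated values were more than those of every treated library, and the log2 difference between the knockout groups, -1.16 ± 0.11, was the largest fall but those of Acot1 and Ucp3 (adjusted p = 3.5e-06); from treated wild-type hearts it was -0.13 ± 0.11. Echs1, the short-chain enoyl-CoA hydratase (ENSMUSG00000025465, chromosome 7, 140105710 to 140116476), had 257, 196 and 244 in treated knockout libraries, 296, 320.0 and 246 in treated wild-type libraries and 314, 310.2 and 294 in untreated knockout libraries. It fell between the knockout groups (-0.40 ± 0.11, adjusted p = 0.0069; 0.057 with quantile scaling) and differed from treated wild-type hearts by -0.30 ± 0.11, just short of the threshold (adjusted p = 0.0504). The difference from treated wild-type hearts passed as lower in 7 of 24 alternatives (adjusted p = 0.0036 to 0.048). Acaa2, the mitochondrial thiolase for medium chains, was at 447 ± 35.5 in treated knockout, 402 ± 70.9 in treated wild-type and 767 ± 35.5 in untreated knockout hearts, with a log2 difference of -0.78 ± 0.11 between the knockout groups (adjusted p = 8.1e-05).

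Unsaturated chains need isomerases and a reductase to enter the cycle. Eci2, an enoyl-CoA isomerase found in mitochondria and peroxisomes (ENSMUSG00000021417, chromosome 13, 34977748 to 35027096), had 80.8, 72.9 and 79.7 in treated knockout libraries, 91.7, 102 and 83.3 in treated wild-type libraries and 131, 138 and 119 in untreated knockout libraries. The 3 groups did not overlap, and treated knockout hearts were lowest (-0.73 ± 0.09 from untreated knockout hearts, adjusted p = 2.1e-05; -0.24 ± 0.09 from treated wild-type hearts, adjusted p = 0.0514). The difference of Eci2 from treated wild-type hearts passed as lower in 5 of 24 alternatives (adjusted p = 0.016 to 0.048). Ech1, a dienoyl-CoA isomerase (ENSMUSG00000053898, chromosome 7, 28825217 to 28832247), had 609, 526 and 601 in treated knockout libraries, 547, 533 and 385 in treated wild-type libraries and 1142, 1163 and 1023 in untreated knockout libraries. It fell between the knockout groups by 0.94 ± 0.12 on the log2 scale (adjusted p = 3.1e-05), and here the treated wild-type libraries had the lowest mean (0.26 ± 0.12 in treated knockout against treated wild-type hearts, adjusted p = 0.11). Eci1, the mitochondrial enoyl-CoA isomerase, showed the same order of means, with 131 ± 8.39 in treated knockout, 111 ± 20.0 in treated wild-type and 202 ± 12.8 in untreated knockout hearts. Both passed against treated wild-type hearts with quantile, cyclic loess or nuclear-gene scaling (adjusted p = 0.0074 to 0.044). Decr1, the dienoyl-CoA reductase, fell between the knockout groups by 0.80 ± 0.11 on the log2 scale (adjusted p = 5.8e-05).

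Electrons from the dehydrogenases pass to the electron transfer flavoprotein, made of the products of Etfa and Etfb, and on to its dehydrogenase, Etfdh. Etfb (ENSMUSG00000004610, chromosome 7, 43444083 to 43457800) had 331, 311 and 324 in treated knockout libraries, 289.8, 276 and 207 in treated wild-type libraries and 383, 374 and 350.2 in untreated knockout libraries. Treated knockout libraries lay above all treated wild-type ones (0.34 ± 0.10, adjusted p = 0.029) and below all untreated ones, where the difference passed only in other fits, such as that without treated wild-type replicate 3 (adjusted p = 0.016). The call against wild-type hearts did not hold when treated wild-type replicate 3 was left out (0.19, adjusted p = 0.056), without treated knockout replicate 1 or 3 (adjusted p = 0.074 and 0.064), with only the treated groups in the fit (adjusted p = 0.064) and with length and GC corrected for (0.04, adjusted p = 0.81). Of its 50-base stretches 67.3% also occur in Gm45233, which overlaps it on the same strand. Etfa was at 451 ± 52.3 in treated knockout, 481 ± 59.7 in treated wild-type and 542 ± 15.9 in untreated knockout hearts; its fall between the knockout groups (-0.27 ± 0.10, adjusted p = 0.036) was lost in 9 of 24 alternatives, among them the fits without treated knockout replicate 2 or any 1 untreated library (adjusted p = 0.058 to 0.15). Etfdh fell between the knockout groups by 0.65 ± 0.10 on the log2 scale (adjusted p = 0.00014) and differed from treated wild-type hearts by -0.27 ± 0.10 (adjusted p = 0.060). The latter difference passed as lower in 4 of 24 alternatives (adjusted p = 0.0028 to 0.046).

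Mlycd, malonyl-CoA decarboxylase, removes the inhibitor of CPT1, and Ucp3 is the uncoupling protein of muscle mitochondria. Mlycd was at 58.9 ± 6.23 in treated knockout, 56.1 ± 10.2 in treated wild-type and 106 ± 4.42 in untreated knockout hearts, and Ucp3 at 33.2 ± 5.07, 30.4 ± 8.13 and 77.9 ± 9.63 in the same groups. Between the knockout groups their log2 differences were -0.85 ± 0.12 and -1.21 ± 0.17 (adjusted p = 6.0e-05 and 6.4e-05). The treated groups overlapped for both, with intervals of -0.17 to 0.33 for Mlycd and -0.21 to 0.51 for Ucp3.

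**Figure D4:**
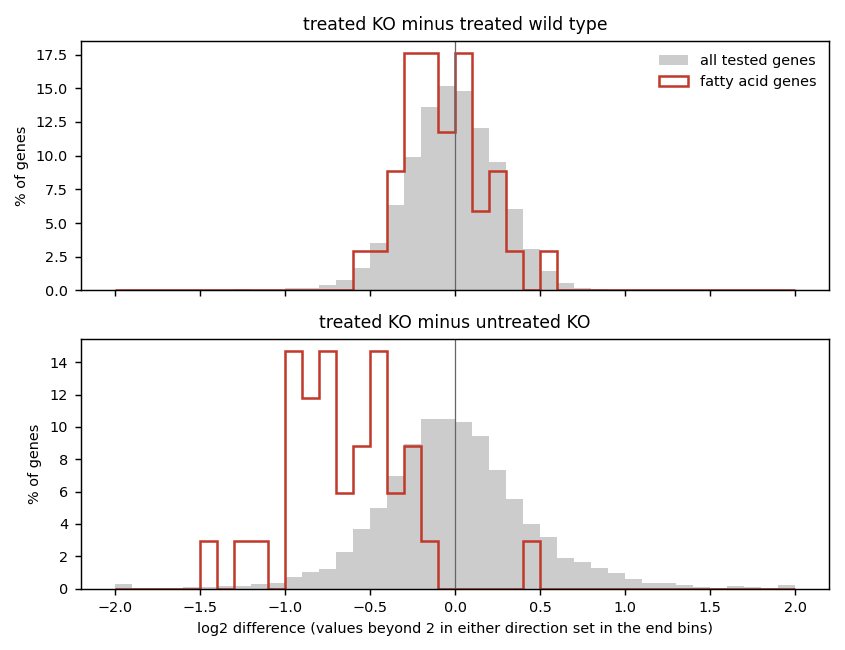
Share of genes by log2 difference in equal bins, grey for all 8543 tested genes and red for the 34 tested fatty acid genes, for treated knockout minus treated wild type above and treated knockout minus untreated knockout below. Above, both distributions centre near 0 (medians -0.10 and -0.01); below, the fatty acid genes lie to the left (median -0.69, beside -0.02), with Acot13 alone to the right.

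The start regions of the genes were read for the sequence that PPARα with its partner RXR is known to bind, a direct repeat of AGGTCA with 1 base between. RefSeq windows of 250 bases before to 50 bases after the start (GRCm38.p6) were given for 29 of the 35 genes, 32 windows in all; Decr1, Lpl, Crat, Acaa2, Cpt1b and Acot13 had none. The exact repeat, on either strand, was in 0 of the 32 and in 13 of all 32851 windows (0.0396%). With up to 2 mismatches it was in 5 of 32 (15.6%; Cd36, Echs1, Etfa, Slc25a20 and Ucp3), beside 3.86% of all windows. The single unit AGGTCA, which any exact repeat contains, was in 6 of 32 (18.8%), beside 16.3%, and AAGGTCA, the form bound by the estrogen-related receptors, which contains AGGTCA, was in 1, that of Acadm, beside 4.72%. A match is a string of letters and not a measured binding site, and the part of PPARα in the differences between groups was not tested. The 250 bases before the start are printed 5′ to 3′ on the gene's strand for the 4 genes whose match lies in them, with the match in capitals, and for Hadhb, which has none, because it shares this stretch with Hadha.
Ucp3: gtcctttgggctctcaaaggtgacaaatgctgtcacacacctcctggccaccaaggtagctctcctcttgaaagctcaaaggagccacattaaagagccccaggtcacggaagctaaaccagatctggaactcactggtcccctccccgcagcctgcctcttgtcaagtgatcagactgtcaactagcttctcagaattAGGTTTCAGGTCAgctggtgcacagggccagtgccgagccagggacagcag
Cd36: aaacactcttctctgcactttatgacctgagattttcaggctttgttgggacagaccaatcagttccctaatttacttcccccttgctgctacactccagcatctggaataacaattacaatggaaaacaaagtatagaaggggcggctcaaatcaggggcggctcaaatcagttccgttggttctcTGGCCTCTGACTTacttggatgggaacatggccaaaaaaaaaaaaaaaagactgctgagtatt
Echs1: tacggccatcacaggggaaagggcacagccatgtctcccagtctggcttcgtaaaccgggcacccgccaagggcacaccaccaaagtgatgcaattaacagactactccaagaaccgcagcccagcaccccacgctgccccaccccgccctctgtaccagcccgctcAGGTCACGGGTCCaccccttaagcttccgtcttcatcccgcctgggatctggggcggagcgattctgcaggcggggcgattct
Etfa: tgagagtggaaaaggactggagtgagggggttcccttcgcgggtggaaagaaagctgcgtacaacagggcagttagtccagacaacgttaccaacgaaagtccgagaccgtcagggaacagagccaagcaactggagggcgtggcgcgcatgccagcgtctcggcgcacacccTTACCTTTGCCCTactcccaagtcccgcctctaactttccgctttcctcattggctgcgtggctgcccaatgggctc
Hadhb: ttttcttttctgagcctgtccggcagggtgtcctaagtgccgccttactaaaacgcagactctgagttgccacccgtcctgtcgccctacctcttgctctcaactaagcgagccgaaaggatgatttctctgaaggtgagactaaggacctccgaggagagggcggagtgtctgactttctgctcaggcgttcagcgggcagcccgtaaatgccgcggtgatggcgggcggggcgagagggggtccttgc
The windows are chr7:100472741-100472990 on the plus strand for Ucp3, chr5:17835897-17836146 on the minus strand for Cd36, chr7:140116422-140116671 on the minus strand for Echs1, chr9:55512244-55512493 on the minus strand for Etfa and chr5:30155003-30155252 on the plus strand for Hadhb. The match of Ucp3 begins 51 bases before the start, and those of Cd36, Echs1 and Etfa begin 63, 83 and 77 bases before it; that of Slc25a20 lies after the start. Between the knockout groups the log2 differences of the genes with a match were -1.21 for Ucp3, -0.75 for Slc25a20, -0.40 for Echs1 and -0.27 for Cd36 and Etfa. Whether a match went with the size of change was not tested. Hadha and Hadhb are read in opposite directions from RefSeq start sites 273 bases apart on chromosome 5, with the printed stretch between them. The gene positions given above come from GENCODE, and there Hadha ends at 30155162, inside the printed stretch. The window of Cd36 likewise lies inside the span given for that gene.

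Ratios of genes within a library show how partners changed relative to each other. A factor that multiplies all values of a library, as TMM or nuclear-gene scaling does, leaves them unchanged. Quantile and cyclic loess scaling and correction for length and GC content can move them. Per kilobase, Hadhb stood at 3.07 ± 0.0768 times Hadha in treated knockout hearts, 3.11 ± 0.0916 times in treated wild-type hearts and 3.32 ± 0.0346 times in untreated knockout hearts, with every untreated library above all treated ones. The ratio of Etfa to Etfb was 0.897 ± 0.0779 in treated knockout hearts, 1.21 ± 0.0661 in treated wild-type hearts and 0.943 ± 0.0225 in untreated knockout hearts, with every treated wild-type library above all 6 knockout libraries. Acsl1 to Acot13, an activating and a releasing enzyme, stood at 0.404 ± 0.0542, 0.678 ± 0.0649 and 1.05 ± 0.0934 in the same order of groups, with no overlap. With length and GC content corrected for, Etfb and Acot13 lost their calls in treated knockout against treated wild-type hearts. Their log2 differences were then 0.04 and 0.10 (limma adjusted p = 0.81 and 0.27), while Acsl1 held its call. Cpt1b to Cpt1a was at 14.9 ± 1.01 in treated knockout, 16.2 ± 1.70 in treated wild-type and 16.7 ± 2.79 in untreated knockout hearts, where all groups overlapped. With 3 libraries against 3, the smallest two-sided p of an exact permutation test is 0.10, so the ratios are given as values.

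**Figure D5:**
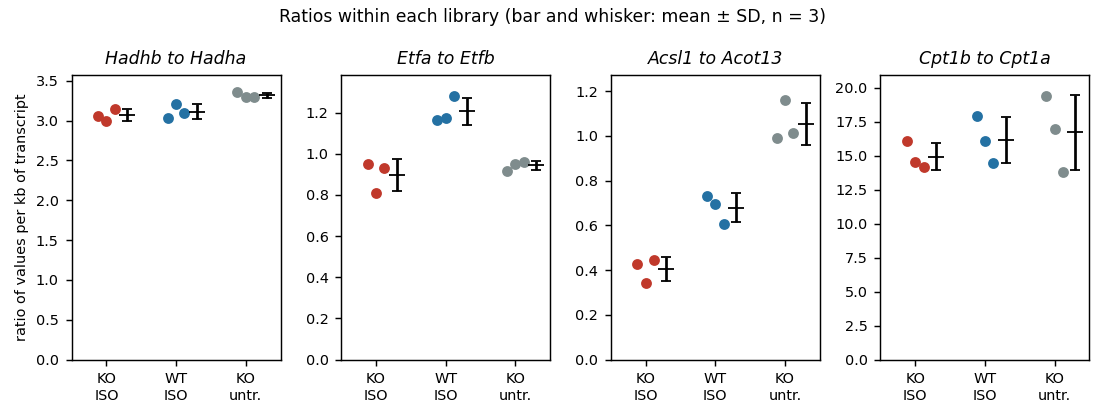
Ratios of values per kilobase of transcript for 4 pairs of genes within each library, with 1 point per library and the mean ± SD of n = 3 beside it. The Acsl1 to Acot13 ratio parts all 3 groups, and the Etfa to Etfb ratio is higher in treated wild-type libraries (mean 1.21) than in both knockout groups (0.897 and 0.943).

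Genes around the pathway were counted in 4 further lists, to be read beside the shares of all tested genes, 27.4% lower and 23.9% higher between the knockout groups and 15.9% lower and 12% higher against treated wild-type hearts. Of 20 tested further mitochondrial acyl-CoA enzymes 17 were lower and 0 higher in treated against untreated knockout hearts, and 6 were lower and 0 higher against treated wild-type hearts. Ivd, an isovaleryl-CoA dehydrogenase of leucine breakdown, was at 199 ± 20.6 in treated knockout, 248 ± 32.8 in treated wild-type and 416 ± 9.96 in untreated knockout hearts. Acacb, which makes malonyl-CoA at the mitochondrial surface, was also lower (-0.73) between the knockout groups. Against treated wild-type hearts the smallest p were those of Oxct1, which opens ketone body use (-0.46 ± 0.09), Mut, methylmalonyl-CoA mutase (-0.57 ± 0.13), and Acadsb (-0.34 ± 0.09). Peroxisomal beta-oxidation had 9 of 13 tested genes lower and 0 higher between the knockout groups, among them Pex11a (-0.75 ± 0.12) and Hsd17b4 (-0.45 ± 0.08). Against treated wild-type hearts 5 were lower, among them the acyltransferase Crot (-0.55 ± 0.09), and 1, the thiolase Acaa1a, was higher (0.32 ± 0.07).

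Further uptake and binding genes went both ways, with 5 of 13 higher and 3 lower between the knockout groups and 5 higher and 2 lower against treated wild-type hearts; the shares of lower genes were near those of all tested genes. Fabp4, a fatty acid binding protein of capillary endothelium and fat cells, was at 672 ± 72.8 in treated knockout, 440.2 ± 40.4 in treated wild-type and 301 ± 26.6 in untreated knockout hearts. Fabp5 and Cav1, caveolin, were higher by 1.34 ± 0.10 and 0.86 ± 0.07 between the knockout groups and by 0.37 ± 0.10 and 0.23 ± 0.07 against treated wild-type hearts. The endothelial markers above were higher in the same comparisons, 12 of 12 and 10 of 12, and their part in these values was not tested. Against treated wild-type hearts Got2, a mitochondrial aminotransferase also described as a fatty acid binder, was lower (-0.36 ± 0.09), and Dbi, the acyl-CoA binding protein, higher (0.34 ± 0.09). Angptl4, an inhibitor of lipoprotein lipase, was at 11.2 ± 1.53 in treated knockout, 7.50 ± 1.26 in treated wild-type and 38.3 ± 14.9 in untreated knockout hearts.

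Of 18 tested regulators 13 were lower and 1 higher between the knockout groups, and 10 were lower and 0 higher against treated wild-type hearts. Ppara, the gene of PPARα, had 11.1, 6.57 and 12.3 in treated knockout libraries, 22.7, 23.4 and 22.5 in treated wild-type libraries and 20.8, 23.4 and 23.8 in untreated knockout libraries. The treated knockout libraries lay below all others, by log2 differences of -1.16 ± 0.16 from treated wild-type hearts (adjusted p = 0.00060) and -1.14 ± 0.16 from untreated knockout hearts (adjusted p = 7.4e-05), while treated wild-type and untreated knockout hearts differed by 0.02 ± 0.16. Esrrg, an estrogen-related receptor, and Lpin1, a phosphatidate phosphatase and coactivator, were likewise lower in treated knockout hearts, at -0.76 ± 0.09 and -0.59 ± 0.08 from treated wild-type hearts. Ppargc1a, the gene of PGC-1α, was at 75.7 ± 4.79 in treated knockout, 92.9 ± 9.82 in treated wild-type and 98.4 ± 7.93 in untreated knockout hearts, with adjusted p of 0.029 and 0.0035 for treated knockout against the other groups. Nrip1, a corepressor, differed by -0.97 ± 0.11 between the knockout groups. Pdk4, the pyruvate dehydrogenase kinase that spares glucose, was at 351 ± 62.5, 367 ± 93.4 and 682 ± 142 in the same 3 groups, lower between the knockout groups (adjusted p = 0.00079).

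Treated wild-type hearts are set beside untreated knockout hearts for completeness, since genotype and treatment differ together in that pair and it shares libraries with both others. Of the 34 genes 28 were lower in treated wild-type hearts, 1 was higher and 5 did not pass, where 16.9% of all tested genes were lower and 16.4% higher. Without Acot1, 27 of 33 were lower. With nuclear-gene scaling the counts were again 28 and 1, and the calls over all genes were 1806 higher and 1113 lower in place of 1399 and 1440. The median was -0.52, and -0.51 without Acot1, beside 0.01 over all tested genes. Acot13 was again the higher gene (0.20 ± 0.06; not past the threshold without treated wild-type replicate 1 or 2 or untreated knockout replicate 2 or 3, adjusted p = 0.067 to 0.11), and Lpl, Etfa, Acad11, Cd36 and Echs1 did not pass. For Slc27a1 the log2 difference was -1.12 ± 0.10 and for Acsl1 -0.44 ± 0.11, beside -0.58 and -0.93 in treated against untreated knockout hearts. Ech1 (-1.20 ± 0.12) and Ucp3 (-1.36 ± 0.17) had larger falls here than all but Acot1 among the 34 genes. Myl7 was at 0.233 ± 0.0415 in treated wild-type hearts, against 199.6 ± 74.7 in untreated knockout hearts, and all 8 atrial markers were lower. For Myl7, Myl4 and Sln that call was again built into their selection, through the untreated libraries. Both tested adipocyte markers were lower too, and their list summed to 22.9 to 29.9 in treated wild-type and 81.5 to 203 in untreated knockout hearts. The limit on the selection of these adipocyte markers, given above, applies here too. Of the endothelial markers 8 of 12 were higher, summing to 1333 to 1429 in treated wild-type and 969.6 to 1049 in untreated knockout hearts. Of the fibroblast markers 8 of 9 tested were higher and 1 lower, with sums of 1921 to 2621 against 1826 to 1903, and 5 of 9 tested mural cell markers were higher. Of the 12 cardiomyocyte markers 2 were higher and 3 lower, with sums of 46742 to 53503 in treated wild-type and 54006 to 58477 in untreated knockout hearts. The part of these markers in the differences was not tested.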

How the data were processed

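RNA-seq libraries of mouse heart, 9 in all with 3 in each of 3 groups, were grouped by the sample labels. The authors deposited normalized expected counts (unit signal, with the values of each library scaled to its size); per the submitters' processing notes they used cutadapt, RSEM 1.17, limma and the build GRCm38, and for the aligner and settings the sources used here give nothing. TRIzol extraction, column purification and TruSeq libraries are stated per the labels' protocols, without the strand. Each deposited value was a whole multiple of 1 step per library (100% of values, within 0.02 reads), which gave 6933879 to 12187701 reads per library. Of the 13539 genes, 232 have no symbol.

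The main test was limma 3.58.1 in R 4.3.3 on log2(value + 1), with 1 mean per group, a shared spread and a mean-variance trend, over the 8543 genes at 10 or more in 3 or more of the 9 libraries. The labels do not say that each library is a separate animal. Tests were two-sided, with Benjamini-Hochberg adjustment over all tested genes. The recovered reads were tested with edgeR 4.0.16 and DESeq2 1.42.0 as alternatives. The other alternatives were the pseudocount, the filter, 4 scalings, the form of the fit, the groups in it, the replicate number as a block, correction for length and GC content, the threshold and each library left out. The fit without treated wild-type replicate 3 and treated knockout replicate 2 was chosen after seeing the data. Gene positions and lengths come from GENCODE M21 on GRCm38 (13385 IDs found), and start regions from RefSeq. The pipeline was tested on simulated data. The members and lists were chosen with earlier results of these data known. Values in every library are given for the 8 genes with the smallest p in each comparison with treated knockout hearts and for Cpt1a, Cpt1b, Cpt2, Acadm, Acadvl, Hadha, Cd36 and Lpl. Acad10, Acot1, Ppara and the markers were added outside that rule. In the further lists up to 3 genes with the smallest p are named, and Ppara, Ppargc1a, Pdk4, Angptl4 and Fabp4 whatever their p. Some genes of these lists are counted but not reported by name here.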

Additional observations from a re-analysis of the deposited data

How the results depend on the processing

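Of the calls, 27 of 32 between the knockout groups, 3 of 7 between the treated groups (Slc27a1, Acad11 and Acsl1) and 25 of 29 between treated wild-type and untreated knockout hearts held under every alternative run for single genes. Over single genes and alternatives, 2269 results kept direction and side of the threshold, 61 lost the call, 67 gained one and 33 turned sign, none of them called either way; the cause was not tested. Over all genes, 2379, 4388 and 2839 passed for treated knockout against treated wild-type, treated against untreated knockout and treated wild-type against untreated knockout hearts. A minimum of 50 left 1236, 1765 and 1152, with 2661 genes tested. Length and GC correction left 1567 in the first, and a threshold of 0.01 left 959 in the first and 1642 in the third. For treated knockout against treated wild-type hearts, genes of the pathway that were higher numbered 6 with quantile scaling, 6 with cyclic loess, 5 with nuclear-gene scaling, and 1 with length and GC correction or a threshold of 0.01, in place of 3. The lower ones numbered 2 with no trend, with only those groups in the fit or at 0.01, in place of 4, and 14 without both doubted libraries. The median between the knockout groups was -0.52 with quantile, -0.57 with cyclic loess and -0.58 with nuclear-gene scaling. On the recovered reads, edgeR called 2428, 4348 and 2799 genes in all and 3 higher and 3 lower, 1 and 30, and 1 and 29 of the pathway; DESeq2 called 3 and 5, 1 and 32, and 1 and 28 of the pathway. Treated wild-type hearts had 0 genes higher than untreated knockout hearts at 0.01 and 2 without both libraries.

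Leaving out 1 library at a time gave 2 to 3 higher, 2 to 17 lower and medians of -0.21 to -0.04 for treated knockout against treated wild-type hearts, with 1336 to 2382 genes in all. Between the knockout groups it gave 1 higher, 28 to 33 lower, medians of -0.73 to -0.62 and 3574 to 4605 in all. For the third comparison it gave 0 to 1 higher, 25 to 29 lower, medians of -0.61 to -0.42 and 1957 to 3087 in all.

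The sign turned in treated knockout against treated wild-type hearts for Acads (0.058 with quantile, 0.07 with cyclic loess, 0.030 with nuclear-gene scaling), Etfa (0.0066 with quantile and 0.0069 with cyclic loess), Cpt1b (0.010 with cyclic loess), and Fabp3 (-0.16) and Mlycd (-0.14) with length and GC correction. In treated wild-type against untreated knockout hearts it turned for Cd36 (0.0065 with quantile, 0.035 with cyclic loess). With libraries left out, 1 at a time or the 2 together, values that turned ranged from -0.076 to 0.10 for Lpl, -0.19 to 0.31 for Acot1, -0.14 to 0.070 for Acads, -0.20 to 0.0065 for Etfa, -0.016 to 0.068 for Cpt1a, -0.30 to 0.061 for Acot2, -0.083 to 0.14 for Acadvl, -0.055 to 0.15 for Fabp3, -0.086 to 0.29 for Ucp3, -0.066 to 0.20 for Mlycd and, in treated wild-type against untreated knockout hearts, -0.18 to 0.0083 for Echs1. Without both libraries Lpl stood at -0.015, Acadvl at -0.042 and Echs1 at 0.0083.

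With the replicate number as a block, 3 genes were higher and 3 lower in treated knockout against treated wild-type hearts, 1 and 32 between the knockout groups, and 1 and 28 in the third comparison; Slc22a5 lost its call in the first (adjusted p = 0.067) and Lpl gained one in the second (adjusted p = 0.047). Same-numbered libraries of the treated groups correlated in their deviations at 0.18, -0.04 and -0.14, and in neither other comparison were all 3 pairs over 0.1. Deviations from a mean of 3 libraries sum to 0 within a group. These correlations therefore cannot decide whether the numbers pair the samples. Low values limit Acot1 and Acad10, with 38 and 30 reads in their lowest libraries.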

Other observations

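Markers of 4 further cell types were counted in the same libraries. Of 9 tested markers of mural cells, the pericytes and smooth muscle cells around vessels, 7 were higher and 1 lower in treated against untreated knockout hearts, with a summed value of 1284 to 1549 in treated knockout, 1417 to 1664 in treated wild-type and 1021 to 1045 in untreated knockout libraries. Rgs5, Acta2 and Cspg4 had the smallest p among them. Of 7 tested macrophage markers 3 were higher between the knockout groups, with sums of 406 to 468 in treated knockout, 335 to 487 in treated wild-type and 299 to 408 in untreated knockout libraries. Of 3 tested brown adipocyte markers 1, Cox8b, was higher and 1, Ppargc1a, lower between the knockout groups, and Ppargc1a is also counted among the regulators above. None of 4 tested red blood cell genes passed in any of the 3 comparisons by limma, with 1, Hba-a2 between the knockout groups, at an unadjusted p under 0.05 (0.040). Their sum ran from 1289 to 5717 in treated knockout, 2565 to 3275 in treated wild-type and 2255 to 5416 in untreated knockout libraries. The highest sum, 5717, was that of treated knockout replicate 2, which was also the lowest of its group for most of the fatty acid genes.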
